A study of Homo sapiens with 18 samples.

Results

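The NF-kB genes described here are 10: the 5 subunit genes NFKB1, NFKB2, REL, RELA and RELB, and 5 genes of the inhibitor and feedback arm, NFKBIA, NFKBIE, NFKBIZ, TNFAIP3 and BIRC3. They are a list of symbols drawn up with earlier results of these data known, by a rule with no threshold on measured values, and all 10 were found among the 40184 gene IDs of the deposited table. RNA-seq was done on 3 human acute myeloid leukaemia lines, with 3 replicates in each of 6 groups. The receptor gene FLT3 has an internal tandem duplication (FLT3-ITD) in Molm-14 and MV4-11, and the receptor gene KIT has the mutation N822K in SKNO-1. Each line received the vehicle DMSO or 500 nM RMC-4550 for 24 h. RMC-4550 is an allosteric inhibitor of SHP2, the phosphatase encoded by PTPN11 that passes signals from receptor tyrosine kinases to RAS. All lines grew in medium with 10% fetal bovine serum, and only SKNO-1 also received GM-CSF, at 10 ng/mL. A single line carried the KIT mutation, so the line, its genotype and its growth factor cannot be told apart. The labels call the replicates biological but name no separate cultures, so p-values measure the spread between these samples.

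NF-kB factors are dimers of the 5 subunits. In resting cells inhibitors of the IkB family hold them in the cytoplasm. Receptors such as those for TNF activate the IkB kinase complex, the inhibitor is degraded, and the freed dimers bind kB sites in DNA. Several genes induced in this way end the signal: NFKBIA makes new inhibitor, and TNFAIP3 makes an enzyme that edits ubiquitin chains on the signalling proteins. NF-kB activity is known as a survival signal in myeloid leukaemia cells.

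The promoter sequences of the members were searched for kB sites. Windows of 300 bases around each RefSeq gene start (GRCh38.p14) were read on both strands for the 10-base kB consensus. It was found in 11.27% of 35116 windows and in 9 of 13 windows of the members. Counted by gene, it was found in 13.25% of 27305 genes and in 7 of the 8 members with a window, RELA being the one without a match. RELB and NFKBIE have no window in the table used here. The stretches printed are those of 5 members on which the results turn, 5′ to 3′ on the gene's strand, with the kB matches in capitals. They lie at chr6:137867139-137867258 (TNFAIP3, plus strand), chr14:35404750-35404869 (NFKBIA, minus strand), chr11:102317265-102317384 (BIRC3, plus strand), chr4:102501239-102501358 (NFKB1, plus strand) and chr2:60881454-60881573 (REL, plus strand).
TNFAIP3: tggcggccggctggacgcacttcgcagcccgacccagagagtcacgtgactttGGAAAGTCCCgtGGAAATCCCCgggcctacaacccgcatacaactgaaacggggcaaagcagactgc
NFKBIA: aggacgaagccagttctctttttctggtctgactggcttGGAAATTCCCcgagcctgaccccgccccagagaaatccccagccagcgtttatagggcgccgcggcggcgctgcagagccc
BIRC3: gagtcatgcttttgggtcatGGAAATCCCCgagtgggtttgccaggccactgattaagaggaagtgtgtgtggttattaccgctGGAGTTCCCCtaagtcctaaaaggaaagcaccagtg
NFKB1: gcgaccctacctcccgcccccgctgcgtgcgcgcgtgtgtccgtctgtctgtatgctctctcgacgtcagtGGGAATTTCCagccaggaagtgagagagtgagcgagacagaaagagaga
REL: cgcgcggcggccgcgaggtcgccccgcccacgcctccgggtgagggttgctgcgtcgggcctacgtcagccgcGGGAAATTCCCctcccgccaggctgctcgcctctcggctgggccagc
The TNFAIP3 matches begin 67 and 55 bases before the RefSeq gene start, that of NFKBIA 81 bases before it, those of BIRC3 199 and 135 bases, and that of NFKB1 49 bases. The capitals of REL hold 2 matches that overlap and begin 47 and 46 bases before its RefSeq start. The gene coordinates given with the values are those of GENCODE, in which TNFAIP3 and REL begin further upstream, so that their matches lie just inside the annotated gene. A match in these letters is a description of the sequence and no evidence of binding in these cells.

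Libraries held 17434810 to 19959917 reads, so that 1 CPM (the deposited unit, reads scaled to a common library size) stood for 15.61 to 21.79 reads. Mitochondrial genes took 5.073% to 7.017% of the reads in 14 libraries and 10.517% to 15.017% in the other 4. Those 4 were replicate 2 of Molm-14 with RMC-4550, replicates 1 and 3 of MV4-11 with DMSO, and replicate 1 of MV4-11 with RMC-4550. Among untreated libraries, 9261 genes reached 10 CPM in Molm-14; of these 0 had under 1% of that level in MV4-11 (the lowest had 4.039%), and 69 did in SKNO-1. In the reverse direction, 61 of 9416 genes of MV4-11 did so in Molm-14. All comparisons with MV4-11 rest on libraries with this property. Whether these libraries hold RNA of Molm-14, which would change what their levels and differences mean, was not tested. All 6 myeloid markers were found in every group, with a summed level of 747.8 to 1494 CPM. Their sum was higher with RMC-4550 in Molm-14 (747.8 to 757.0 CPM against 1038 to 1232 CPM) and in SKNO-1 (1180 to 1253 CPM against 1332 to 1494 CPM). Markers of T cells, B cells, erythroid and stromal cells each summed to at most 19.11 CPM in any library, with CD3D or CD2 at 0 in every group. The T cell sum was 11.42 to 13.67 CPM in Molm-14 with DMSO and 2.093 to 3.651 CPM with RMC-4550, and TRAC was the 1 of its 5 genes to reach 1 CPM there and in MV4-11 with DMSO. Fewer cells of a type and less RNA per cell cannot be told apart in such bulk samples, and the part of these levels in the results was not tested. ETV4 and DUSP6, known as outputs of the pathway from RAS to ERK, were lower with RMC-4550 in all 3 lines, with log2 changes of -3.279 and -1.298 in SKNO-1, -3.465 and -0.621 in Molm-14, and -1.625 and -0.93 in MV4-11.

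TNFAIP3 (ENSG00000118503, chromosome 6, 137867188 to 137883312, plus strand, GRCh38) was lower with RMC-4550 in all 3 lines. In Molm-14 its level was 167.5, 170.8 and 175.4 CPM in the DMSO libraries and 105.2, 96.4 and 98.47 CPM in the treated ones. In MV4-11 it was 109.9, 120.4 and 108.5 CPM with DMSO and 79.64, 85.6 and 83.43 CPM with RMC-4550. In SKNO-1 it was 55.04, 55.67 and 53.39 CPM with DMSO and 31.14, 30.85 and 31.49 CPM with RMC-4550. Every treated library lay below every DMSO library of its line. The treated level was 0.584 of the DMSO level in Molm-14 (log2 change -0.78, adjusted p 2.2e-07 by limma), 0.734 in MV4-11 (log2 change -0.45, adjusted p 0.00024) and 0.570 in SKNO-1 (log2 change -0.81, adjusted p 2.4e-07), with a standard error (SE) of 0.066 on the log2 scale. Of 12792 genes tested in every line, 5.8% were called lower in all 3, and TNFAIP3 was the only member among them. Split by mitochondrial reads, the MV4-11 change was -0.51 in the libraries under 10% (1 DMSO and 2 treated) and -0.46 in those over 10% (2 DMSO and 1 treated). This split was not tested. The MV4-11 call was lost in a fit on the MV4-11 libraries alone (adjusted p 0.062). The long noncoding gene AL357060.1 overlaps TNFAIP3 on the other strand, and whether reads were counted by strand is not given in the sources used here.

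NFKBIA (ENSG00000100906, chromosome 14, 35401511 to 35404749, minus strand), the gene of the inhibitor IkB alpha, changed in the opposite direction. In Molm-14 it went from 40.23, 38.35 and 41.56 CPM with DMSO to 62.69, 61.68 and 57.8 CPM with RMC-4550, a 1.52-fold rise (log2 change 0.60, SE 0.086, adjusted p 4.1e-05). In MV4-11 it went from 39.33, 33.04 and 36.63 CPM to 46.58, 41.51 and 42.93 CPM, a 1.20-fold rise (log2 change 0.27, adjusted p 0.049). In SKNO-1 the DMSO libraries held 30.59, 30.47 and 34.14 CPM and the treated ones 33.31, 37.48 and 36.46 CPM. The groups did not overlap in Molm-14 or MV4-11, and they overlapped in SKNO-1, where the log2 change of 0.17 did not pass the test (adjusted p 0.16). In MV4-11 the call was not kept on leaving out replicate 2 or 3 of the DMSO libraries or any 1 of the treated ones (log2 changes from 0.20 to 0.33 over the 6 libraries left out in turn), and it was lost with no filter on low values (adjusted p 0.17). Within the MV4-11 libraries the log2 change was 0.35 under 10% mitochondrial reads (1 DMSO and 2 treated libraries) and 0.30 over 10% (2 DMSO and 1 treated). With so few libraries this split was not tested.

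**Figure D1:**
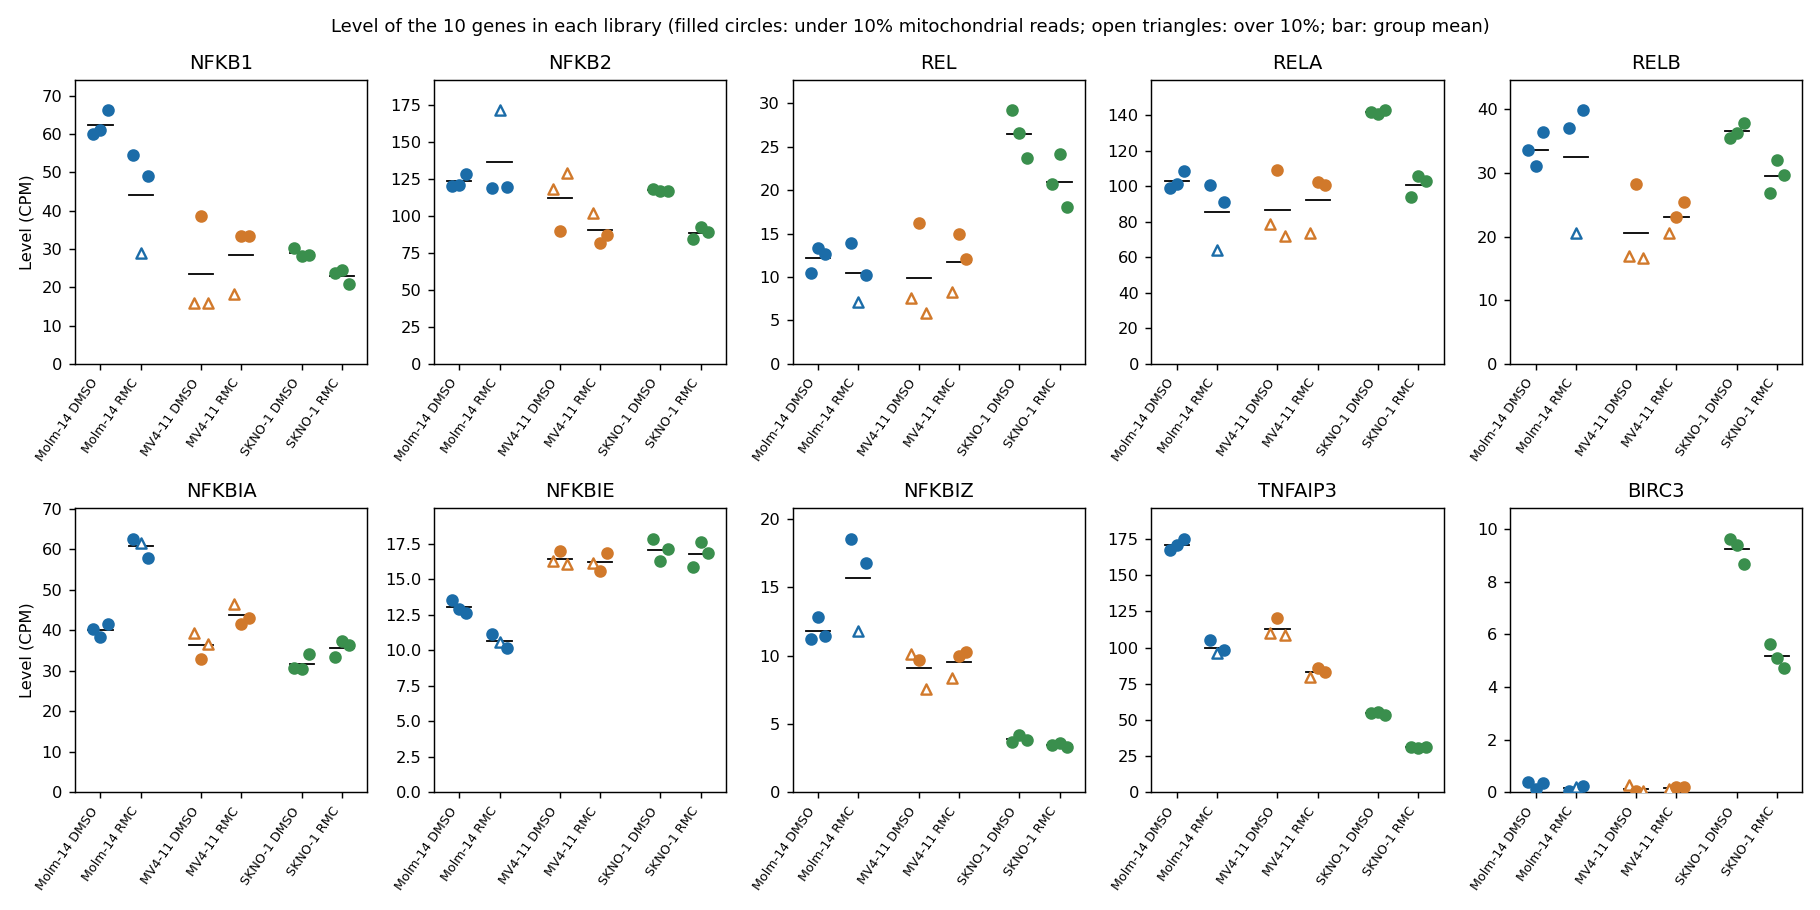
Level in CPM (y axes, linear from 0) of the 10 genes in each of the 18 libraries, by group (x axis); circles are libraries under 10% mitochondrial reads, triangles those over 10%, and bars are group means. TNFAIP3 lies lower in the treated groups of all 3 lines, and NFKBIA rises from a mean of 40.04 to 60.73 CPM in Molm-14.

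Of the other IkB genes among the members, NFKBIE was called in Molm-14 and NFKBIZ in no line by the fit over all libraries. NFKBIE (ENSG00000146232, chromosome 6, 44258166 to 44265788, minus strand) encodes IkB epsilon, another cytoplasmic inhibitor. In Molm-14 it fell from 13.5, 12.92 and 12.59 CPM to 11.15, 10.57 and 10.18 CPM, with no overlap (log2 change -0.29, SE 0.083, adjusted p 0.0098), and this call was lost in a fit on the Molm-14 libraries alone (adjusted p 0.068). In MV4-11 and SKNO-1 the NFKBIE libraries of both treatments lay between 15.59 and 17.85 CPM and overlapped, with log2 changes of -0.03 in each (adjusted p 0.89 and 0.85). NFKBIZ (ENSG00000144802, chromosome 3, 101827991 to 101861022, plus strand) encodes the nuclear IkB zeta, which acts with NF-kB on part of its target genes. In Molm-14 NFKBIZ was at 11.22, 12.8 and 11.42 CPM with DMSO and at 18.58, 11.79 and 16.8 CPM with RMC-4550. The low treated library was replicate 2, the one with over 10% mitochondrial reads, and the groups overlapped through it. The log2 change of 0.39 did not pass the test (SE 0.161, adjusted p 0.059), and it was 0.58 and called without that library (adjusted p 0.0044 with the other 17 libraries). With all 18 libraries limma also called it with voom weights (0.398, adjusted p 0.044) and on log2(CPM + 1) (0.363, adjusted p 0.047). So it did with median-ratio scaling (0.435, adjusted p 0.029) and the mitochondrial share as a covariate (0.543, adjusted p 0.00091). It was not called with no filter, a replicate block or a fit on Molm-14 alone. NFKBIZ did not pass in MV4-11 (log2 change 0.07, adjusted p 0.82) or in SKNO-1 (log2 change -0.17, adjusted p 0.48).

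BIRC3 (ENSG00000023445, chromosome 11, 102317450 to 102339403, plus strand), which encodes a ubiquitin ligase of the TNF receptor complex that limits cell death, was at or near the detection limit in the FLT3-ITD lines. Its DMSO libraries held 7, 2 and 6 reads in Molm-14 and 5, 1 and 1 reads in MV4-11, against 209, 205 and 184 reads in SKNO-1. Summed over 3 libraries and scaled by library size, SKNO-1 with DMSO held 32.83 times the BIRC3 level of Molm-14 (95% exact interval for counting error 19.75 to 59.04) and 72.42 times that of MV4-11 (34.93 to 180.9). Both differences passed the limma test (adjusted p 3.5e-07 and 1.2e-07). With RMC-4550 the SKNO-1 level went from 9.642, 9.408 and 8.664 CPM to 5.644, 5.103 and 4.735 CPM, without overlap. The log2 change of -0.84 did not pass in the fit over all libraries (SE 0.53, adjusted p 0.27), whose spread for this gene includes the lines with few reads. It passed in a fit on the SKNO-1 libraries alone (adjusted p 6.3e-06), with voom precision weights (adjusted p 0.0026) and on log2(CPM + 1) (log2 change -0.73, adjusted p 0.00013). BIRC3 was under the filter on low values in Molm-14 and MV4-11, where the treated libraries held 1 to 4 reads, and no change was tested there.

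Among the subunit genes, RELA and NFKB2 were lower with RMC-4550 in SKNO-1. RELA (ENSG00000173039, chromosome 11, 65653596 to 65663094, minus strand) encodes the main transactivating subunit of the canonical pathway. In SKNO-1 it went from 141.9, 140.6 and 142.7 CPM to 93.6, 105.7 and 103.1 CPM, 0.710 of the DMSO level (log2 change -0.49, SE 0.169, adjusted p 0.04). NFKB2 (ENSG00000077150, chromosome 10, 102394110 to 102402529, plus strand) encodes the precursor that is processed in the noncanonical pathway. In SKNO-1 it went from 118.4, 117.1 and 117.2 CPM to 84.25, 92.97 and 89.37 CPM, 0.755 of the DMSO level (log2 change -0.41, SE 0.14, adjusted p 0.042). Neither gene's groups overlapped. Both calls were lost without any 1 of the 6 SKNO-1 libraries (log2 changes from -0.53 to -0.44 for RELA and from -0.44 to -0.37 for NFKB2, adjusted p up to 0.12), with median-ratio scaling of the libraries and when genes of low level were kept, and no direction changed. The gene AP001362.2 overlaps RELA on the other strand.

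The remaining subunit genes had the same direction in SKNO-1 and did not pass. NFKB1 (ENSG00000109320, chromosome 4, 102501329 to 102617302, plus strand), whose precursor gives the usual partner of RELA, was at 30.22, 28.22 and 28.53 CPM with DMSO and at 23.73, 24.54 and 20.73 CPM with RMC-4550 (log2 change -0.34, SE 0.306, adjusted p 0.46). RELB (ENSG00000104856, chromosome 19, 45001430 to 45038198, plus strand), the partner of the processed NFKB2 protein, was at 35.52, 36.26 and 37.86 CPM with DMSO and at 26.79, 32.01 and 29.75 CPM with RMC-4550 (log2 change -0.31, SE 0.218, adjusted p 0.32). The groups did not overlap for NFKB1 or RELB. REL (ENSG00000162924, chromosome 2, 60881521 to 60931610, plus strand), which encodes c-Rel, was at 29.2, 26.57 and 23.68 CPM with DMSO and at 20.73, 24.17 and 18.07 CPM with RMC-4550, with overlap (log2 change -0.34, adjusted p 0.47). The RNA gene RNU4-51P and AC010733.2 overlap REL on its own strand. In a fit on the SKNO-1 libraries alone, where the spread between replicates was that of this line, all 5 subunit genes, TNFAIP3 and BIRC3 were called lower, with the same log2 changes (adjusted p 0.0015 for NFKB1, 0.0076 for REL and 0.0019 for RELB). That fit called 33.2% of the genes tested lower.

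In Molm-14 and MV4-11 no subunit gene passed the test, and the libraries with over 10% mitochondrial reads stood apart for all 5. The share of all genes for which they did so is not given here, so this is no trait particular to the subunit genes. NFKB1 in Molm-14 was at 60.01, 60.96 and 66.24 CPM with DMSO and at 54.55, 28.82 and 48.98 CPM with RMC-4550 (log2 change -0.55, adjusted p 0.15). The lowest treated value was that of replicate 2, with 15.017% mitochondrial reads. Without it the log2 change was -0.27, which was called in the fit on the libraries under 10% (adjusted p 0.0073) and not in the fit on the other 17 libraries (adjusted p 0.52). NFKB1 in MV4-11 was at 15.93, 38.51 and 15.92 CPM with DMSO and at 18.12, 33.51 and 33.29 CPM with RMC-4550 (log2 change 0.35, adjusted p 0.52). The 3 low values were those of the 3 MV4-11 libraries over 10%. The change was -0.21 within the libraries under 10% (1 DMSO and 2 treated) and 0.19 within those over 10% (2 DMSO and 1 treated), a split that was not tested.

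Across the 3 groups that hold both kinds of library, those over 10% mitochondrial reads had lower NFKB1, REL, RELA and RELB and higher NFKB2 than those under 10%. The log2 difference was -1.27 to -0.84 for NFKB1, -1.28 to -0.70 for REL, -0.58 to -0.46 for RELA and -0.90 to -0.23 for RELB. It was 0.27 to 0.52 for NFKB2. For TNFAIP3 it was -0.14 to -0.08, for NFKBIE -0.07 to -0.01 and for NFKBIA 0.04 to 0.20. NFKBIZ had differences of -0.58, -0.15 and -0.28 in Molm-14 with RMC-4550, MV4-11 with DMSO and MV4-11 with RMC-4550. Each of these compares 1 or 2 libraries with 1 or 2 others and was not tested, and the same differences over all genes are not given here. The treated and DMSO values of REL, RELA, RELB and NFKB2 overlapped in both lines, and their log2 changes in Molm-14 were -0.27, -0.30, -0.11 and 0.13 (adjusted p 0.49, 0.16, 0.71 and 0.47). In MV4-11 they were 0.35, 0.10, 0.20 and -0.31 (adjusted p 0.53, 0.77, 0.62 and 0.18). When DMSO replicate 2 of MV4-11, the library of that group under 10%, was left out, NFKB1 and REL were called higher in MV4-11 (log2 changes 0.77 and 0.78) and NFKB2 was called lower (-0.46). What sets these 4 libraries apart was not tested.

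**Figure D2:**
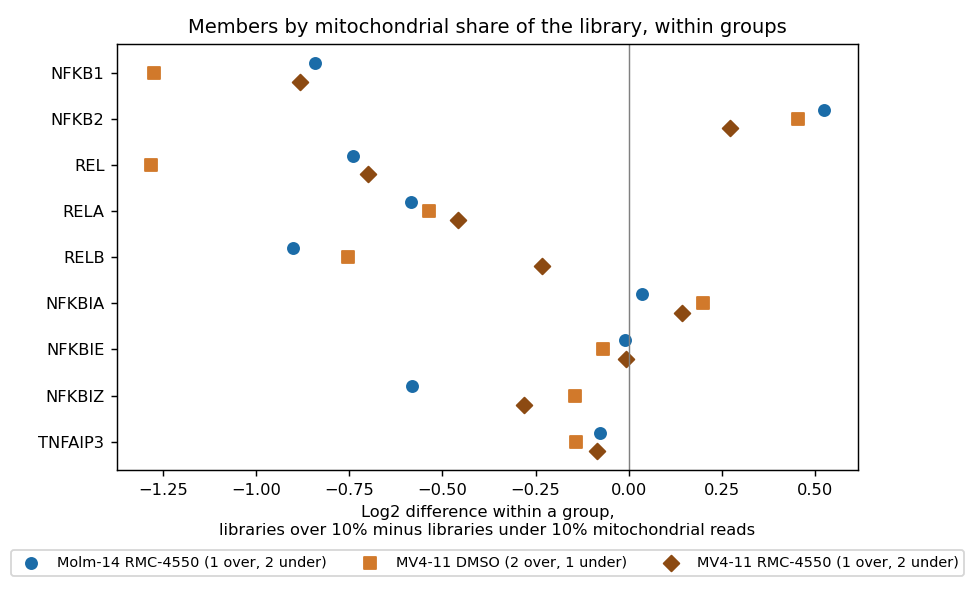
Log2 difference (x axis) between libraries over and under 10% mitochondrial reads within each of the 3 groups that hold both, for 9 members (y axis; BIRC3 is left out for its few reads), with 1 point per group. NFKB1, REL, RELA and RELB lie left of 0 in each group and NFKB2 right of it, while TNFAIP3, NFKBIA and NFKBIE stay between -0.141 and 0.2.

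Counted over the members, 1 was called higher (NFKBIA) and 2 lower (TNFAIP3 and NFKBIE) of 9 tested in Molm-14, where 46.7% of all genes tested were called (21.5% higher and 25.2% lower). In MV4-11, 1 was called higher and 1 lower of 9, where 13.9% of all genes were called (5.85% higher and 8.03% lower). In SKNO-1, 0 were called higher and 3 lower of 10, where 27.1% of all genes were called (10.8% higher and 16.2% lower). For the count of 0, limma gave 0 members higher at an unadjusted p under 0.05, voom weights also gave 0, and the fit on the libraries under 10% called NFKBIA (adjusted p 0.035). Of all SKNO-1 calls 40.0% were higher, and 50.6% were with median-ratio scaling. Treated and DMSO libraries did not overlap for 7 of 10 members in SKNO-1, 4 of 9 in Molm-14 and 2 of 9 in MV4-11, against 62.0%, 60.0% and 24.6% of all genes tested. The 7 in SKNO-1 all lay below, as did 35.4% of all genes. The median log2 change of the members was -0.34 in SKNO-1, -0.27 in Molm-14 and 0.10 in MV4-11, against -0.05, -0.06 and -0.01 over all genes tested.

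**Figure D3:**
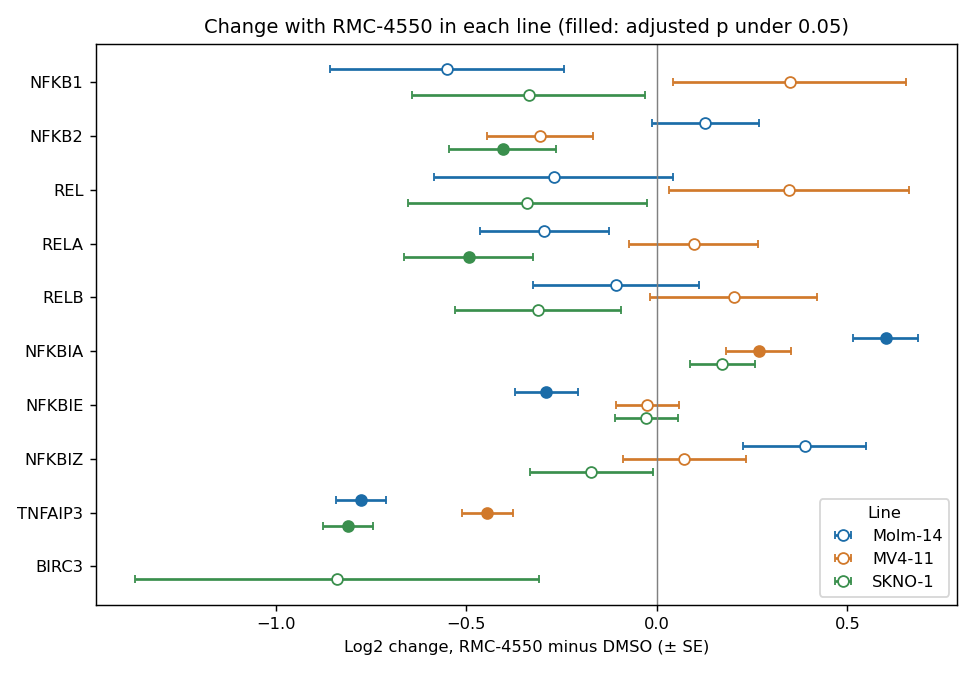
Log2 change with RMC-4550 against DMSO (x axis, points, with bars of 1 SE from the limma fit) for each member (y axis) and line; filled points have an adjusted p under 0.05, and BIRC3 was tested in SKNO-1 alone. TNFAIP3 lies at -0.811 in SKNO-1, -0.776 in Molm-14 and -0.445 in MV4-11, and NFKBIA right of 0 in each.

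The responses were then compared between lines. The TNFAIP3 change in Molm-14 was more negative than in MV4-11 by 0.33 on the log2 scale (difference -0.331, SE 0.093, adjusted p 0.023). This was the 1 member called of 9, where 19.5% of all genes were called. The call was absent on leaving out DMSO replicate 3 of Molm-14, DMSO replicate 1 or 3 of MV4-11, or RMC-4550 replicate 2 of MV4-11, and with the libraries under 10% mitochondrial reads (difference -0.24, adjusted p 0.062). When DMSO replicate 2 of MV4-11 was left out, 6 members were called: NFKB1, NFKB2, REL, RELA, NFKBIA and TNFAIP3. The share of all genes called without that library is not given here, so this count cannot be weighed against it. For NFKBIA the difference over all libraries was 0.33 (SE 0.121, adjusted p 0.064). That of NFKBIZ was 0.316 (adjusted p 0.31), and it was 0.63 and called by limma with the mitochondrial share as a covariate (adjusted p 0.019). The SKNO-1 response did not differ from the mean response of the FLT3-ITD lines for any of 9 members by limma, where 3.8% of all genes were called; 2 members, NFKBIA and TNFAIP3, had an unadjusted p of 0.024, and voom weights called 0. With the mitochondrial share as a covariate, 5 members were called lower in that comparison (NFKB2, RELA, RELB, NFKBIA and TNFAIP3, with differences from -0.36 to -0.19), where 12% of all genes were called lower. With the libraries under 10% alone, 4 were called lower (NFKB2, RELA, NFKBIA and NFKBIZ, from -0.50 to -0.30), where 11.4% of all genes were called lower.

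In the fit over all libraries, untreated levels differed between at least 1 pair of lines for 9 of the 10 genes, all but NFKB2. Single pairs called 54.2% (MV4-11 against Molm-14), 65.3% (SKNO-1 against Molm-14) and 42.5% (SKNO-1 against MV4-11) of all genes tested. The share of all genes called in at least 1 pair is not given here, so the count cannot be weighed against it. TNFAIP3 had 171.3 ± 3.97 CPM (SD, n = 3) in Molm-14, then 113.0 ± 6.524 in MV4-11, then 54.7 ± 1.175 in SKNO-1, and each step in that order passed the test (log2 differences -0.60 for MV4-11 against Molm-14 and -1.05 for SKNO-1 against MV4-11, adjusted p 1.4e-06 and 2.9e-09). NFKBIZ had 3.894 ± 0.2524 CPM in SKNO-1, 9.108 ± 1.376 in MV4-11 and 11.82 ± 0.8605 in Molm-14. SKNO-1 differed from both other lines (log2 differences -1.60 and -1.21, adjusted p 2.2e-07 and 1.9e-05), and the difference of -0.38 between the FLT3-ITD lines was at the threshold (adjusted p 0.054, with 0.049 on log2(CPM + 1) and 0.044 with median-ratio scaling). NFKBIA followed the same order, at 31.73 ± 2.082 CPM in SKNO-1, 36.33 ± 3.157 in MV4-11 and 40.04 ± 1.612 in Molm-14. The outer lines of that order, SKNO-1 and Molm-14, differed (log2 difference -0.34, adjusted p 0.0025), and neighbours in it did not pass (adjusted p 0.17 and 0.079). MV4-11 was called below Molm-14 with the mitochondrial covariate (-0.21, adjusted p 0.036), and SKNO-1 below MV4-11 on leaving out DMSO replicate 2 of MV4-11 (-0.26, adjusted p 0.021). With the libraries under 10%, where untreated MV4-11 was 1 library, the difference of MV4-11 to Molm-14 was -0.28. NFKBIE ran the other way, at 17.06 ± 0.8044 CPM in SKNO-1, 16.44 ± 0.4856 in MV4-11 and 13 ± 0.4618 in Molm-14. Molm-14 was below MV4-11 and SKNO-1 (adjusted p 0.003 and 0.00062), which did not differ beyond their spread (log2 difference 0.05, adjusted p 0.63).

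Among the subunit genes, REL and RELA were highest in SKNO-1 and NFKB1 in Molm-14. REL had 26.49 ± 2.761 CPM in SKNO-1, 12.17 ± 1.482 in Molm-14 and 9.87 ± 5.556 in MV4-11. SKNO-1 was 2.18-fold above Molm-14 and 2.94-fold above MV4-11 (adjusted p 0.005 and 0.00096). The log2 difference to MV4-11 was 1.56 over all libraries and 0.70 with those under 10% (adjusted p 0.0081), where MV4-11 was 1 library of 16.21 CPM. Between the FLT3-ITD lines the REL difference turned with the libraries used: MV4-11 against Molm-14 was at -0.44 over all libraries (adjusted p 0.25), at -0.86 and called on leaving out DMSO replicate 2 of MV4-11 (adjusted p 0.0097), and at 0.42 with those under 10% (adjusted p 0.083). RELA had 141.7 ± 1.057 CPM in SKNO-1, 102.9 ± 4.94 in Molm-14 and 86.68 ± 19.82 in MV4-11. SKNO-1 was above both (log2 differences 0.46 and 0.73, adjusted p 0.024 and 0.0027), the latter 0.38 with the libraries under 10% (adjusted p 0.001). The call against Molm-14 was not kept on leaving out any 1 of replicates 1 and 2 of Molm-14 or replicates 1, 2 and 3 of SKNO-1, with differences from 0.44 to 0.50 over the 6 libraries left out in turn. NFKB1 had 62.4 ± 3.356 CPM in Molm-14, 28.99 ± 1.073 in SKNO-1 and 23.45 ± 13.04 in MV4-11. Molm-14 was above both (adjusted p 0.0047 and 0.00056). The log2 difference of MV4-11 to Molm-14 was -1.54, and -0.70 with the libraries under 10% (adjusted p 2.8e-05). The order of SKNO-1 and MV4-11 turned with the libraries used: the log2 difference was 0.44 over all libraries (adjusted p 0.26), 0.86 and called on leaving out replicate 2 of MV4-11 (adjusted p 0.0094), and -0.41 and called with the libraries under 10% mitochondrial reads (adjusted p 0.0033), where MV4-11 was that 1 replicate.

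RELB had 36.55 ± 1.192 CPM in SKNO-1, 33.67 ± 2.705 in Molm-14 and 20.61 ± 6.651 in MV4-11. MV4-11 was below both, with a log2 difference of -0.75 to Molm-14 (adjusted p 0.0089) and with SKNO-1 above it by 0.87 (adjusted p 0.0048). With the libraries under 10%, where untreated MV4-11 was 1 library, SKNO-1 was above it by 0.37. The difference between MV4-11 and Molm-14 was not called without replicate 1 or without replicate 3 of MV4-11 (down to -0.62), the libraries over 10%, or with the libraries under 10% (-0.25, adjusted p 0.068). NFKB2 had 123.5 ± 4.509 CPM in Molm-14, 117.6 ± 0.724 in SKNO-1 and 112.5 ± 20.08 in MV4-11, and no pair of lines differed beyond the spread (log2 differences of -0.15 to 0.08, adjusted p 0.38 to 0.68). With the libraries under 10%, where untreated MV4-11 was 1 library, NFKB2 in MV4-11 was below Molm-14 (-0.45) and below SKNO-1 (SKNO-1 higher by 0.38). With the mitochondrial share as a covariate over all libraries, limma called these differences (-0.454 and 0.409, adjusted p 2.2e-06 and 1.8e-05). Over all 10 genes, 4 of 9 tested were called between MV4-11 and Molm-14, 8 of 10 between SKNO-1 and Molm-14 and 6 of 10 between SKNO-1 and MV4-11, where 54.2%, 65.3% and 42.5% of all genes tested were called.

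Per kilobase of exon, the leading gene differed between untreated Molm-14 and untreated SKNO-1. In untreated Molm-14, TNFAIP3 had the highest level of the 10 genes, at 33.9 CPM per kb, followed by NFKB2 at 27.54, RELA at 18.83 and NFKBIA at 16.88 CPM per kb. In untreated SKNO-1, NFKB2 (26.22 CPM per kb) and RELA (25.94) led, followed by NFKBIA (13.37), RELB (12.04) and TNFAIP3 (10.83 CPM per kb). Untreated MV4-11 had NFKB2 at 25.1 ± 4.477 and TNFAIP3 at 22.36 ± 1.292 CPM per kb (SD, n = 3), an order within the spread of NFKB2. Exon lengths were unions over all GENCODE 29 transcripts of a gene, and the transcripts in use in these cells may be shorter. Of the summed CPM per kb of the 5 subunit genes in DMSO libraries, NFKB2 made up 37.01% in SKNO-1, 48.6% in MV4-11 and 40.3% in Molm-14. RELA made up 36.62%, 30.15% and 27.54% in the same order. NFKB1 made up 14.59% in Molm-14 and 7.007% and 6.54% in MV4-11 and SKNO-1. In MV4-11 the NFKB1 share ran from 5.041% to 10.83% over the DMSO libraries. The 2 of them over 10% mitochondrial reads held a mean of 15.92 CPM of NFKB1 and the other 38.51 CPM. REL was the smallest share in each line, at 2.839% in SKNO-1, 1.402% in MV4-11 and 1.353% in Molm-14. With RMC-4550 in SKNO-1 the RELA share was 34.63% ± 0.6727, against 36.62% ± 0.1146 with DMSO, and the libraries did not overlap. The RELB share was 18.24% ± 0.5635 against 17% ± 0.545, and the NFKB2 share 37.23% ± 0.3926 against 37.01% ± 0.2069. In MV4-11 the NFKB2 share ran from 35.41% to 57.07% over the DMSO libraries, and in Molm-14 from 39.63% to 61.84% over the treated ones.

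**Figure D4:**
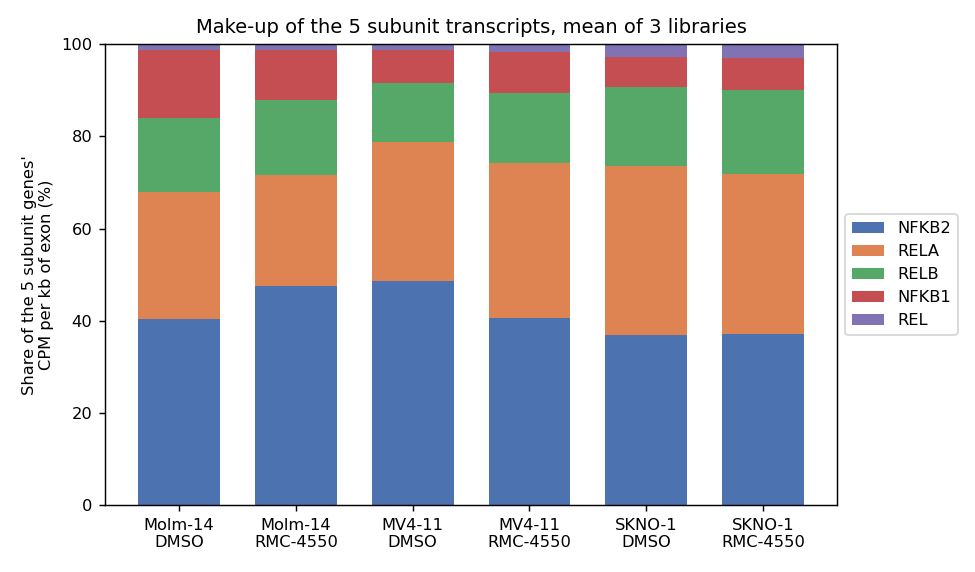
Share (y axis, percent) of each of the 5 subunit genes in their summed CPM per kb of exon, as the mean of 3 libraries, in the 6 groups (x axis). NFKB1 takes 14.59% in untreated Molm-14 and 6.54% in untreated SKNO-1, and the RELA segment is widest in SKNO-1.

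The rest of the pathway was read from 3 lists. Of 32 receptors, adaptors and kinases upstream of NF-kB, 8 rose and 6 fell of 30 tested in Molm-14, 3 rose and 0 fell of 29 in MV4-11, and 3 rose and 3 fell of 29 in SKNO-1. These 14, 3 and 6 calls stand beside 46.7%, 13.9% and 27.1% of all genes called in the same lines. Leaving out single libraries gave 9 to 13, 2 to 5 and 3 to 4 calls, moving by 1.5 times or more without DMSO replicate 2 in Molm-14, any library but DMSO replicate 1 in MV4-11, and any 1 library in SKNO-1. The upstream genes' median log2 changes were 0.05, 0.06 and 0.01, against -0.06, -0.01 and -0.05 over all genes tested. RIPK1, the kinase that links the TNF receptor to the IkB kinases, rose in all 3 lines (log2 changes 0.61, 0.37 and 0.39, adjusted p 2.4e-05, 0.006 and 0.0022), though not in a fit on MV4-11 alone (adjusted p 0.14). MYD88, the adaptor of Toll-like and interleukin-1 receptors, rose in MV4-11 and SKNO-1 (0.84 and 0.65, adjusted p 1.9e-05 and 8.6e-05) and was at 51.84 ± 2.299 CPM with DMSO and 53.99 ± 5.328 CPM with RMC-4550 in Molm-14. TNFRSF1B, a TNF receptor, rose in Molm-14 from 65.34 ± 3.807 to 142.6 ± 26.5 CPM (log2 change 1.11, adjusted p 1.5e-05). TRADD, an adaptor of the other TNF receptor, rose there by 0.86 (adjusted p 5.4e-06) and in MV4-11 by 0.33 (adjusted p 0.037). The MV4-11 call of TRADD was absent on leaving out DMSO replicate 3 or any 1 of the 3 treated replicates, and with the libraries under 10% (0.27, adjusted p 0.11). CHUK, an IkB kinase, fell in Molm-14 (log2 change -1.16, adjusted p 0.0015) and also SKNO-1 (-0.76, adjusted p 0.033), the latter call not kept on leaving out any 1 of the 6 libraries. In MV4-11 CHUK was at -0.30 and not called (adjusted p 0.49), and called lower with the covariate (-0.63, adjusted p 0.00016) and with the libraries under 10% (-0.81, adjusted p 0.00049). IRAK1, a kinase of the MYD88 complex, fell in Molm-14 (-1.25, adjusted p 0.0095), with libraries at 427.8 to 473.3 CPM with DMSO and 90.32 to 284.5 CPM with RMC-4550. Its change was -0.71 without treated replicate 2, the library over 10% (adjusted p 0.043), and its call was lost in a fit on Molm-14 alone (adjusted p 0.053). TRAF3, which restrains the noncanonical pathway, fell in Molm-14 (-0.95, adjusted p 7.4e-05) and also SKNO-1 (-0.49, adjusted p 0.019), where in the latter the call was absent on leaving out DMSO replicate 1 or RMC-4550 replicate 1 or 3.

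Of 14 further inhibitors and atypical IkB genes, 13 were tested in each line, of which 3 rose and 0 fell in Molm-14, 0 rose and 2 fell in MV4-11, and 0 rose and 1 fell in SKNO-1. These are 3, 2 and 1 calls of 13, where 46.7%, 13.9% and 27.1% of all genes were called. The count ran from 1 to 3 in Molm-14 (lowest without DMSO replicate 2) and from 0 to 1 in SKNO-1 (0 without DMSO replicate 2 or 3 or RMC-4550 replicate 1 or 3). In MV4-11 it ran from 1 to 4 and moved on leaving out any library but RMC-4550 replicate 1. The inhibitors' median log2 changes were 0.00, 0.05 and -0.19, against -0.06, -0.01 and -0.05 over all genes tested. BCL3, a nuclear IkB protein, rose in Molm-14 from 17.62 ± 1.808 to 49.67 ± 2.376 CPM (log2 change 1.498, adjusted p 1.8e-08). NFKBID, another nuclear IkB protein, rose in Molm-14 by 0.59 (adjusted p 0.019) and fell in both MV4-11 (-0.67, adjusted p 0.03) and SKNO-1 (-0.60, adjusted p 0.029). Each of these NFKBID calls depended on single libraries: in Molm-14 on untreated replicates 2 and 3 and treated replicate 2, in MV4-11 on untreated replicates 1 and 3 and treated replicates 2 and 3, and in SKNO-1 on untreated replicates 2 and 3 and treated replicates 1 and 3. In MV4-11 its log2 change was -0.27 with the libraries under 10% mitochondrial reads (adjusted p 0.2). ZC3H12A, which encodes an RNase that degrades inflammatory transcripts, fell in MV4-11 (-0.60, adjusted p 0.0079), a call lost with the libraries under 10% (-0.49, adjusted p 0.058) and in a fit on that line alone (adjusted p 0.13).

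Of 32 textbook NF-kB target genes, 30 were in the table and 15 to 17 passed the filter on low values. Of those tested, 3 rose and 3 fell in Molm-14, 2 rose and 6 fell in MV4-11, and 2 rose and 3 fell in SKNO-1, where in the same order 46.7%, 13.9% and 27.1% of all genes were called. The 8 calls in MV4-11 became 4 to 7 when single libraries were left out, moving most without DMSO replicate 1 or 3 or RMC-4550 replicate 3, and the 5 in SKNO-1 became 3 to 5, moving most without DMSO replicate 1 or 3. The median log2 changes of the targets were 0.12, -0.04 and -0.11, against -0.06, -0.01 and -0.05 over all genes tested. TNF, the cytokine that activates the pathway, went from 83.62 ± 1.645 to 17.53 ± 1.589 CPM in Molm-14, from 86.57 ± 6.528 to 18.78 ± 0.6165 CPM in MV4-11 and from 16.44 ± 0.6982 to 1.941 ± 0.3515 CPM in SKNO-1 (log2 changes -2.26, -2.20 and -3.08, adjusted p 1.6e-09, 3.1e-09 and 2.1e-10). TNFAIP2 and CFLAR, the latter the gene of a caspase-8 inhibitor, rose in all 3 lines. For TNFAIP2 the log2 changes were 1.16, 0.54 and 0.59 (adjusted p 9.4e-08, 0.00063 and 0.00015), and the MV4-11 call was lost in a fit on that line alone (adjusted p 0.064). For CFLAR they were 0.56, 0.31 and 0.61 (adjusted p 5e-05, 0.017 and 4.3e-05), and its MV4-11 call was absent on leaving out DMSO replicate 3 or RMC-4550 replicate 2 or 3, with no filter (adjusted p 0.069), with the libraries under 10% (0.18, adjusted p 0.096) and in a fit on that line alone (adjusted p 0.21). LTB, a cytokine of the TNF family, fell in both MV4-11 (-0.95, adjusted p 0.0035) and Molm-14 (-1.24, adjusted p 9.6e-05), and CD83, a surface protein of activated antigen-presenting cells, fell in Molm-14 (-0.45, adjusted p 0.022). The CD83 call was absent on leaving out DMSO replicate 1 or 3 or RMC-4550 replicate 2.

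The genes nearest in pattern were sought for NFKBIA, TNFAIP3 and BIRC3 over the 6 group means of log2 values, centred on each gene's own mean, among 11028 genes with a mean of at least 5 CPM. This likeness is a description over 6 means and carries no test. Nearest to NFKBIA was RNPEPL1, with a root mean square difference of 0.063 on the log2 scale. Next were N4BP2L2 (0.07) and PIGC (0.075). RNPEPL1 went from 94.56 ± 1.701 to 135.4 ± 3.505 CPM in Molm-14, from 89.83 ± 5.069 to 103.7 ± 7.538 in MV4-11 and from 77.95 ± 3.287 to 91.82 ± 10.7 in SKNO-1. Nearest to TNFAIP3 were DKC1, a pseudouridine synthase gene (0.08), POLR3G, a subunit gene of RNA polymerase III (0.109), and NDUFS6, a subunit gene of respiratory complex I (0.12). DKC1 went from 206.5 ± 4.224 to 121.3 ± 1.349 CPM in Molm-14, from 118.0 ± 2.177 to 102.2 ± 3.268 in MV4-11 and from 66.14 ± 4.205 to 36.8 ± 1.65 in SKNO-1. The mean of BIRC3 was under 5 CPM, and no neighbour is given for it.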

How the data were processed

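The file deposited by the authors holds 40184 Ensembl gene IDs by 18 samples, in log2 values. Per the submitters' processing notes FastQC, STAR and limma were used with GRCh38; the counter, its annotation and its strand setting are not given in the sources used here. The deposited log2 values have the form of reads plus 0.5, in CPM of a scaled library, from which whole reads came out for 100.0% of values up to 1000 reads (tolerance 0.05); scaling factors ran from 0.8903 to 1.1128. Symbols were found for 40069 IDs. Library depth ran from 17434810 to 19959917 reads, and reads without molecular identifiers are not independent molecules, so counting intervals cover counting error only.

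Genes that reached 1 CPM in 3 or more libraries entered 1 fit over the 18 libraries with limma 3.58.1 in R 4.3.3 (lmFit, contrasts.fit, eBayes with intensity trend, two-sided), with 1 coefficient per group. A gene was tested in a response where at least 3 libraries of that line held 1 CPM. In an untreated comparison at least 3 of the DMSO libraries compared had to hold 1 CPM. A difference of responses was tested where the gene was tested in each line involved. Adjusted p-values are Benjamini-Hochberg over all genes tested in a comparison, called under 0.05. The fit was tested on simulated data with the same dispersion for every gene and library and no raised mitochondrial share, and the outcome is not given here. Such data cannot show how calls depend on the libraries over 10% mitochondrial reads or on spread that differs between lines. The members, gene lists and alternatives were chosen with earlier results of these data known. All 10 members are named; of each list, up to 5 genes called alike in every line, and per line the 2 that rose most and the 2 that fell most, with a mean of at least 5 CPM. Alternatives were no filter, log2(CPM + 1), median-ratio scaling, a replicate block, mitochondrial share as a covariate, only the libraries under 10% mitochondrial reads, voom weights on the recovered reads, separate fits, and leaving out each library. Python 3.11.15 with matplotlib 3.10.9 drew the figures. Promoter windows are from RefSeq.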

Additional observations from a re-analysis of the deposited data

Results flagged for a closer look

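The test of a difference in response between lines (limma, Benjamini-Hochberg adjustment) passed for TNFAIP3 among the members, between Molm-14 and MV4-11, with a log2 difference of -0.331 (adjusted p 0.023).

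Among the list genes named in the report, the same test passed between Molm-14 and MV4-11 for BCL3 (log2 difference 1.216, adjusted p 6.5e-05), NFKBID (1.256, adjusted p 0.0061), TNFRSF1B (1.048, adjusted p 0.003), TNFAIP2 (0.614, adjusted p 0.0044) and TRADD (0.53, adjusted p 0.018), whose response was more positive in Molm-14. It passed in the other direction for MYD88 (-0.784, adjusted p 0.0013), TRAF3 (-0.935, adjusted p 0.0064), CD83 (-0.847, adjusted p 0.012) and IRAK1 (-1.616, adjusted p 0.037). The named genes were picked by their calls and changes within lines in these same data, so their passing is no independent support. Over the full lists, 6 of 28 upstream genes, 2 of 13 inhibitors and 3 of 15 targets tested were called. Of all genes tested, 19.5% were called. With the libraries under 10% mitochondrial reads the CD83 difference did not pass (-0.533, adjusted p 0.14), and those of IRAK1 (-0.677, adjusted p 0.00014) and NFKBID (0.678, adjusted p 0.018) were smaller and passed. The IRAK1 difference was lost without any 1 of 8 libraries (differences from -1.957 to -1.082): replicates 1, 2 and 3 of Molm-14 with DMSO, replicate 2 of Molm-14 with RMC-4550, replicates 1 and 3 of MV4-11 with DMSO and replicates 2 and 3 of MV4-11 with RMC-4550. That of TRADD was lost without replicate 1 of Molm-14 with DMSO, replicate 1 of MV4-11 with DMSO or replicate 2 of MV4-11 with RMC-4550 (from 0.461 to 0.596). The IRAK1 level was 272.8 ± 81.14 CPM in MV4-11 with RMC-4550 and 213.0 ± 106.7 CPM in Molm-14 with RMC-4550 (SD, n = 3), groups that hold libraries over 10% mitochondrial reads.

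Between SKNO-1 and the mean of the FLT3-ITD lines, the response passed as more negative in SKNO-1 for TNF (log2 difference -0.854, adjusted p 0.0023) and BCL3 (-0.732, adjusted p 0.0022), and as more positive for LTB (1.159, adjusted p 0.0097). These genes were picked in the same way. Over the full lists, 0 of 28 upstream genes, 1 of 13 inhibitors and 2 of 15 targets tested were called, where 3.8% of all genes were. On log2(CPM + 1) the TNF difference was -0.405 and did not pass (adjusted p 0.072).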

How the results depend on the processing

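In Molm-14 the fall of TNFAIP3 and the rise of NFKBIA, and in SKNO-1 the fall of TNFAIP3, kept their direction and call under every alternative run. Called members moved by over 1.5 times from 3 in SKNO-1, 3 in Molm-14 and 2 in MV4-11 as follows. With no filter on low values they were 1 in MV4-11 and 1 in SKNO-1. With median-ratio scaling they were 1 in SKNO-1. With the mitochondrial share as a covariate they were 5 in SKNO-1, and with the libraries under 10% mitochondrial reads 5 in Molm-14 and 7 in SKNO-1. Separate fits gave 0 in MV4-11 and 7 in SKNO-1. The calls over all genes moved as well. Of 14670 genes tested in SKNO-1, 1588 were called higher and 2381 lower in the fit over all libraries. With the covariate 2937 were higher and 4333 lower, and in the separate fit 3576 and 4875. With the libraries under 10% mitochondrial reads the calls over all genes also rose in Molm-14 and SKNO-1. The rise in called members under that setting is therefore no result about the members. Leaving out each library gave 1 to 4 called members in MV4-11 and 1 in SKNO-1 each time, with log2 changes of -0.438 to -0.367 for NFKB2. The difference of the SKNO-1 response from the FLT3-ITD lines went from 0 to 5 members with the covariate and 4 with the libraries under 10%. That of Molm-14 from MV4-11 went from 1 to 0 with no filter, 2 with the covariate and 0 with the libraries under 10%, and ran from 0 to 6 when single libraries were left out.

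The cause of these moves was not tested, beyond the fewer samples or more genes that a setting brings. A fit with a replicate block left 1 member called in MV4-11 and 1 in SKNO-1, TNFAIP3 in each. It ended the calls of NFKBIA in MV4-11 (adjusted p 0.069) and of NFKB2 and RELA in SKNO-1 (adjusted p 0.068 and 0.06), and changed no other member's call within a line. Deviations of same-numbered samples correlated from -0.399 to 0.591, over 0.1 in 3 of 9 pairs, and 6 of 18 samples correlated best with their own number, so the numbers were not taken as pairs.

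Values that changed sign were these. With the covariate, and in brackets with the libraries under 10%, log2 changes in Molm-14 were -0.053 (-0.048) for NFKB2 and 0.176 (0.194) for RELB, and 0.122 for REL with the covariate. In MV4-11 they were -0.065 (-0.205) for NFKB1, -0.058 (-0.274) for REL, -0.133 (-0.108) for RELA, -0.09 (-0.223) for RELB, -0.126 (-0.197) for TNFRSF1B and -0.147 (-0.035) for IRAK1, and -0.088 for NFKBIZ with the covariate. TNFRSF1B in SKNO-1 was 0.008 with the covariate and 0.049 with median-ratio scaling, which also gave 0.016 and 0.036 for NFKBIE in MV4-11 and SKNO-1 and 0.03 for TRAF3 in MV4-11. Untreated MV4-11 against Molm-14 was 0.23 (0.42) for REL and 0.107 (0.088) for RELA, and untreated SKNO-1 against MV4-11 was -0.299 (-0.41) for NFKB1. The response of Molm-14 against MV4-11 was 0.18 (0.25) for REL, 0.059 (0.006) for RELA and 0.267 (0.417) for RELB.

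Leaving out each library in turn changed signs too, with these ranges. In Molm-14 they were -0.048 to 0.216 for NFKB2 and -0.283 to 0.194 for RELB, both turned by RMC-4550 replicate 2. In MV4-11 they were -0.024 to 0.275 for RELA, -0.053 to 0.001 for NFKBIE, -0.058 to 0.165 for NFKBIZ, -0.032 to 0.237 for TNFRSF1B, -0.492 to 0.05 for CHUK and -0.135 to 0.122 for TRAF3. In SKNO-1 they were -0.063 to 0.013 for NFKBIE, -0.056 to 0.008 for TNFRSF1B and -0.068 to 0.161 for LTB. For untreated NFKB2 they were -0.257 to 0.001 for MV4-11 against Molm-14 and -0.072 to 0.187 for SKNO-1 against MV4-11. None of these values passed the test in the fit over all libraries.

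Called genes of the 3 lists also moved, as did the calls over all genes. The covariate called 2937 higher and 4333 lower of 14670 in SKNO-1 and 1788 and 3266 of 14739 in MV4-11. In Molm-14 it called 3810 higher and 4219 lower of 13971. Separate fits called 3576 and 4875 in SKNO-1, 328 and 346 in MV4-11, and 2489 and 2841 in Molm-14. Of the upstream genes, 14 called in Molm-14 became 9 in a separate fit. The 3 in MV4-11 became 10 with the covariate, 7 with the libraries under 10% and 1 in a separate fit, and the 6 in SKNO-1 became 14, 17 and 17 under the same settings. Of the inhibitors, 3 in Molm-14 became 7 with the covariate and 6 with the libraries under 10%, and 1 in SKNO-1 became 7, 8 and, in a separate fit, 7, but 2 on log2(CPM + 1) and 0 with no filter or median-ratio scaling. The 2 inhibitors in MV4-11 became 1 with no filter, 1 with the replicate block, 4 with the covariate, 1 with the libraries under 10% and 0 in a separate fit. Of the targets, 8 in MV4-11 became 5 with no filter, 5 with the libraries under 10% and 3 in a separate fit, and 5 in SKNO-1 became 8 with the covariate, 9 with the libraries under 10% and 10 in a separate fit. The replicate block also ended the calls of TRADD and NFKBID in MV4-11, CHUK in SKNO-1 and the IRAK1 difference between Molm-14 and MV4-11.

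Over all genes, 862 rose and 1183 fell in MV4-11, against 1788 and 3266 with the covariate, 1213 and 2684 with the libraries under 10% and 328 and 346 in a separate fit. In SKNO-1 1588 rose and 2381 fell, against 2937 and 4333, 3111 and 4707, and 3576 and 4875 under the same settings. The SKNO-1 response differed from that of the FLT3-ITD lines for 173 genes upward and 313 downward, and for 955 and 1541 with the covariate and 935 and 1421 with the libraries under 10%. That last setting leaves MV4-11 with DMSO a single library, assumed to vary like the other groups. The Molm-14 response differed from that of MV4-11 for 1392 genes upward and 1228 downward of 13458, and for 1675 and 1315 with the covariate. Depth limits BIRC3 in the FLT3-ITD lines, where no library held more than 7 reads.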
